A study of Saccharomyces cerevisiae with 222 samples.

Results

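Summits of S-phase DNA synthesis that lay beside an annotated replication origin, rather than on it, were described on the chromosome arms of budding yeast. A summit is the highest point of a region enriched for newly made DNA, and it was taken as flanking when it lay more than 1 kb and at most 8 kb from the nearest ARS (autonomously replicating sequence, the annotated origin). Only nuclear chromosomes other than chromosome 12 were used, more than 50 kb from both chromosome ends and more than 40 kb from the centromere. Over the 6 lists, 313 of 1209 arm summits met this rule, out of 2235 nuclear summits and 2434 listed in all. They fell around 93 origins, and 91 of these were among the 215 ARS annotated on the arms.

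The study asked what happens when origins fire in G1, outside S phase. All cells were of the W303 background and could incorporate EdU. They were arrested in G1 with α-factor, kept in galactose for 3 h, and then released for 90 min into medium with 100 µM EdU (5-ethynyl-2′-deoxyuridine, a thymidine analog) and 200 mM HU (hydroxyurea). The control was the parental EdU-incorporating strain, E3087. The CDK bypass strain (YKR1445) expressed Dpb11 and the phosphomimetic Sld2-T84D from a galactose-inducible promoter, and the CDK/DDK bypass strain (YKR1447) expressed Dbf4 in addition. Each group was 1 strain with 2 replicates, and nothing in the labels ties the replicates to separate cultures, so the spread between them may be technical.

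CDK and DDK are the kinases that fire origins once per S phase: CDK phosphorylates Sld2 and Sld3, which then bind Dpb11, and DDK, with Dbf4 as its regulatory subunit, phosphorylates the MCM helicase. From a fired origin a pair of forks moves outward, and HU, which depletes the nucleotide pool, slows them so that labeled DNA stays close to the origin. Ty elements are the retrotransposons of yeast, present in many near-identical copies, each bounded by a pair of long terminal repeats (LTRs), many of which also remain as solitary copies. Short reads from such copies cannot be assigned to 1 place with certainty.

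Over the 6 lists, 144 of the 313 flanking summits lay in or within 500 bp of a Ty element or LTR, here called a transposon sequence, and 169 did not. Of the former, 120 sat on a stretch of 75 bp, centred on the summit, that occurred more than once in the reference genome, with a median of 12 copies and at most 75. Of the latter, 6 did. Sequences of the sites that the results turn on are printed from the R64 reference (sacCer3), each as 75 bp and from the plus strand unless stated. In the first set the summit fell into the LTR of the Ty3 family at 5 places: ARS2 (chr8:146494-146568), ARS518 (chr5:434786-434860), ARS728 (chr7:707340-707414, minus strand), ARS1126 (chr11:202772-202846) and ARS1629 (chr16:856662-856736, minus strand). The capitals mark the longest run of bases shared by all 5 windows, 32 bases, which occurred 24 times in the nuclear genome.
ARS2 LTR: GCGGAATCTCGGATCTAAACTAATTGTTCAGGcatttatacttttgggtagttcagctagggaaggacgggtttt
ARS518 LTR: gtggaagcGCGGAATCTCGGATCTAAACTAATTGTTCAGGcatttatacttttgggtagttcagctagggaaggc
ARS728 LTR: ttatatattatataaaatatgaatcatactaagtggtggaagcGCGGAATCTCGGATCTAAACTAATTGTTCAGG
ARS1126 LTR: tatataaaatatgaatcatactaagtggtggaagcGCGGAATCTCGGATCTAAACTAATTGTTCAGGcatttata
ARS1629 LTR: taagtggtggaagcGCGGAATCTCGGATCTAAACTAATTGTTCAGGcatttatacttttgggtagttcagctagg
The next set shows the sites inside Ty coding sequence that recurred between lists, with the summit base in capitals: YGR109W-B of Ty3 beside ARS728 (chr7:712169-712243), YIL082W-A of Ty3 beside ARS901 (chr9:209298-209372) and YER160C of Ty1 beside ARS520 (chr5:493122-493196). These windows occurred 2, 1 and 8 times in the genome.
YGR109W-B: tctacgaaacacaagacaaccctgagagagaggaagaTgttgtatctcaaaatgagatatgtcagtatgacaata
YIL082W-A: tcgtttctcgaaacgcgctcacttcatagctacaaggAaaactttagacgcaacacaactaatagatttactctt
YER160C: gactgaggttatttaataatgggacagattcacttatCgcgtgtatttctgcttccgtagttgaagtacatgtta
The last set shows sites away from transposon sequence that were found in both lists of 1 group only, again with the summit base in capitals: CDC27 beside ARS202 (chr2:68591-68665) and MTC7 beside ARS508 (chr5:86479-86553) in CDK bypass, and HXT7 beside ARS432 (chr4:1154517-1154591) in CDK/DDK bypass. The windows in CDC27 and MTC7 occurred once, and that in HXT7, a hexose transporter gene with a near-identical paralog, occurred 2 times.
CDC27: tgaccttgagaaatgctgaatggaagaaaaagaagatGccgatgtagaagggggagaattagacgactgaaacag
MTC7: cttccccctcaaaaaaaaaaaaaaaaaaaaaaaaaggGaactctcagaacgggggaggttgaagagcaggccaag
HXT7: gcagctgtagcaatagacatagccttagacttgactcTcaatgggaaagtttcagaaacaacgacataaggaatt

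The lists held 318 to 427 nuclear summits each. On chromosome 12 there were 39 to 49 summits in the control and CDK bypass lists and 126 and 123 in the CDK/DDK bypass lists, and in mitochondrial DNA 4 to 28 and 67 to 70, respectively. Where 3 pairs of values are given without names, they stand for control, CDK bypass and CDK/DDK bypass, with replicate 1 first. The depth of each sample is unknown here, because the lists hold no read counts, so a position absent from a list is a missing call and not an absence of synthesis.

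Flanking summits were fewest after CDK/DDK bypass, and most of the shortfall was at transposon sequence. The control lists held 41 and 70 flanking summits, the CDK bypass lists 62 and 75, and the CDK/DDK bypass lists 25 and 40. On these chromosomes the CDK/DDK bypass lists were thus below all the others. Their mean of 32.5 ± 10.6 (SD, n = 2) was 23.0 below that of the control (55.5 ± 20.5) and 36.0 below that of CDK bypass (68.5 ± 9.19), with an exact two-sided permutation p = 0.333 for each (adjusted p = 0.667), the smallest that 2 samples against 2 can give. CDK bypass and control overlapped (exact p = 0.667). With 1 list left out, the difference between CDK/DDK bypass and control ranged from -37.5 to -8.5. That between CDK bypass and control ranged from -1.5 to 27.5, and was negative without control replicate 1. With chromosome 12 included, CDK/DDK bypass had 57 and 74 flanking summits against 48 and 84 in the control, and up to 5 kb from the ARS it had 24 and 36 against 22 and 49. The groups overlapped in both cases, with differences of -0.5 and -5.5.

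Of the other classes of arm summits, those away from an ARS were also fewest after CDK/DDK bypass, and those at an ARS were not. Within 1 kb of an ARS the control had 106 and 97 summits and CDK bypass 120 and 107. CDK/DDK bypass had 104 and 117 there, so that the groups overlapped. All arm summits numbered 188 and 236 in the control, 227 and 248 in CDK bypass, and 139 and 171 in CDK/DDK bypass, and those more than 8 kb from an ARS 41 and 69, 45 and 66, and 10 and 14. Flanking summits made up 21.8% and 29.7% of the arm summits in the control, 27.3% and 30.2% in CDK bypass, and 18% and 23.4% in CDK/DDK bypass, so that as a share the control and CDK/DDK bypass overlapped.

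At transposon sequence there were 22 and 42 flanking summits in the control, 28 and 38 in CDK bypass, and 7 in each CDK/DDK bypass list. As a share, this was 53.7% and 60.0% of the flanking summits in the control, 45.2% and 50.7% in CDK bypass, and 28.0% and 17.5% in CDK/DDK bypass, so that the 3 groups did not overlap. An exact one-sided permutation test, which pairs the 6 lists in all 15 possible ways, gave p = 0.0667, the smallest it can give (adjusted p = 0.1 over the 3 measures chosen after the data were seen). The lower share was not particular to flanking summits. Beyond 8 kb from an ARS, 34 and 61, 37 and 57, and 6 and 6 summits were at transposon sequence. These were 82.9% and 88.4%, 82.2% and 86.4%, and 60.0% and 42.9% of that class. Within 1 kb of an ARS the share was 11.3% and 9.28%, 10.8% and 10.3%, and 10.6% and 6.84%, with overlapping groups. Transposon sequence with its 500 bp margins made up 5.51% of the arm bases 1 to 8 kb from an ARS. Without it, the control lists held 19 and 28 flanking summits, CDK bypass 34 and 37, and CDK/DDK bypass 18 and 33, and the mean of CDK/DDK bypass was then 2 above that of the control. The plot of signed distances shows this thinning of the red and orange points in the bottom pair of lists.

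**Figure D1:**
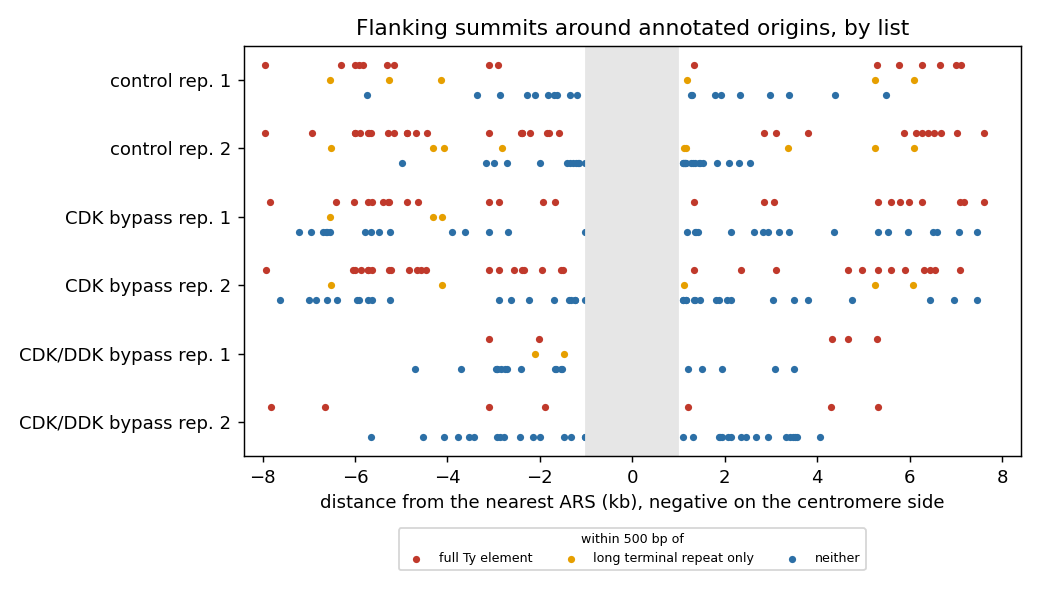
Each point is 1 flanking summit, placed by its distance in kb from the nearest ARS (negative toward the centromere, positive toward the chromosome end, shaded within 1 kb) in the row of its list, and colored by whether a full Ty element, only an LTR, or neither lay within 500 bp. The CDK/DDK bypass lists hold 7 points each at transposon sequence, against 22 to 42 in the other lists.

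The Ty families did not all follow this order. Full elements of Ty1, the most numerous family with 23 on the arms, accounted for 7 and 25 flanking summits in the control. They had 17 and 24 in CDK bypass and 0 in both CDK/DDK bypass lists. The 2 full Ty3 elements on the arms accounted for 6 and 5 in the control, 5 and 4 in CDK bypass, and 4 and 5 in CDK/DDK bypass. At full elements the Ty3 counts therefore overlapped among the groups. Full Ty1 elements were listed in every control and CDK bypass list and in neither CDK/DDK bypass list. Full Ty2 elements gave 2 and 2, 2 and 4, and 1 and 1. The Ty2 summits of CDK/DDK bypass were in YNLCTy2-1, beside ARS1422, which held none in the other lists. Ty4 gave 1 in every list except CDK/DDK bypass replicate 1, which had 0. LTRs outside a full element gave 6 and 9, 3 and 5, and 2 and 0, in the same order of groups. Of these, LTRs of Ty3 gave 4 and 4, 2 and 4, and 0 and 0. Those of Ty1 gave 2 and 3, 1 and 1, and 2 and 0, so the contrast between Ty1 and Ty3 held for full elements only.

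Among the other nuclear summits, those not flanking an arm origin, Ty1 elements had 22 and 53 summits in the control, 34 and 55 in CDK bypass and 4 and 4 in CDK/DDK bypass. Of the 31 Ty1 elements of the nuclear genome, 25 and 28, 26 and 30, and 4 and 4 had a summit of any kind. The 2 Ty3 elements had one in all 6 lists. Median copy numbers of the 75 bp windows differed with the family: in the control and CDK bypass lists they were 15.5 to 18 for flanking summits in Ty1 and 1.5 to 2 in Ty3. Median scores (−log10 of the q-value) of flanking summits in Ty3 were 25.6 and 10.3, 16.1 and 28.5, and 9.90 and 8.20, thus lowest after CDK/DDK bypass. In Ty1 they were 14.4 and 8.31 in the control and 6.50 and 9.81 in CDK bypass, and the lowest listed score was 1.31. Whether these lower scores left Ty1 sites below the limit of calling in CDK/DDK bypass was not tested. Whether copy number, the mapping of repeated reads, or the Ty content of these W303 strains relative to the reference plays a part was not tested.

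**Figure D2:**
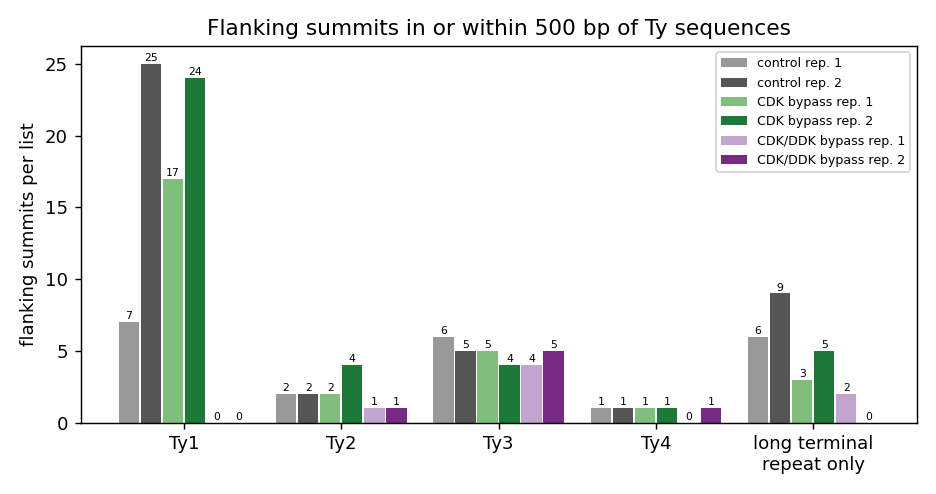
Bars give the number of flanking summits per list in or within 500 bp of full elements of the Ty1, Ty2, Ty3 and Ty4 families, or of an LTR alone, with the number above each bar. At full elements, Ty1 falls from 7 to 25 summits in the control and CDK bypass lists to 0 in both CDK/DDK bypass lists. Full Ty3 elements stay between 4 and 6 in all lists.

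Named elements of Ty1 and Ty3 followed their family. Beside ARS728 (chr7:715312-715377), the Ty3 element YGRWTy3-1 (chr7:707195-712545) held 3 and 3, 3 and 2, and 1 and 3 flanking summits. One of its sites was called in all 6 lists within 3 bp, between positions 712206 and 712209, 3103 to 3106 bp from the ARS and inside YGR109W-B, with within-list score percentiles of 42.6 to 61.1. Its scores were 51.7 and 91.5 in the control, 49.4 and 53.4 in CDK bypass, and lower in CDK/DDK bypass, at 7.30 and 8.20. Beside ARS901 (chr9:214624-214754), YILWTy3-1 (chr9:205220-210647) held 3 and 2, 2 and 2, and 3 and 2. Its most repeated sites, in YIL082W-A at positions 209312 to 209337, appeared in 5 lists and not in control replicate 2. Both origins lie to the right of their element, and all of their flanking summits were on the left, within it.

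Ty1 elements beside ARS520 and ARS1312 had flanking summits in the control and CDK bypass lists and none after CDK/DDK bypass. ARS520 (chr5:498884-499182) had 1 and 4, 2 and 4, and 0 and 0 flanking summits, all in YERCTy1-2 (chr5:492695-498421). ARS1312 (chr13:371001-371105) had 1 and 4, 3 and 3, and 0 and 0, of which 9 of 11 were at YMRCTy1-4 (chr13:372697-378622). Its remaining summits, in CDK bypass, lay on the other side, in CSM3, a gene for a replication fork protection factor, and in ERB1, a ribosome biogenesis gene. ARS1629 (chr16:850512-850629) lies between YPRWTy1-3 and YPRCTy1-4, and was flanked on both sides in control replicate 2 and CDK bypass replicate 2.

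At solitary Ty3 LTRs the positions recurred closely between lists. Beside ARS1126 (chr11:196042-196287) the summit was at 202829, 202811, 202829 and 202809 in the 4 control and CDK bypass lists, 6522 to 6542 bp from the ARS. Beside ARS518 (chr5:438934-439182) it lay between 434793 and 434865 in the same 4 lists, 4069 to 4141 bp away. Beside ARS2 (chr8:140349-141274) it was called at 146527 and 146518 in the control and at 146531 in CDK bypass replicate 2. None of the 3 was listed after CDK/DDK bypass. These are the windows printed with the shared run of 32 bases. At ARS1008 (chr10:204029-204917), 1 of the 3 origins flanked in all 6 lists together with ARS728 and ARS901, the 4 control and CDK bypass summits lay between 197722 and 197767, at the left end of YJLWTy4-1. The CDK/DDK bypass summits were elsewhere, in MDV1, a mitochondrial fission gene on the other side of the ARS, in replicate 1 and in YJL113W of the Ty4 element, 1203 bp from the ARS, in replicate 2.

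With the limits used here, the median distance from the origin did not overlap between any of the groups, but it did under several alternatives. The medians in the control were 4141 and 2834 bp. CDK bypass had longer ones, 5303 and 4579 bp, and CDK/DDK bypass had 2755 and 2813.5 bp. All 3 pairs of groups were without overlap (exact two-sided permutation p = 0.333 each, adjusted p = 0.667), and the exact one-sided permutation over 15 pairings gave p = 0.0667 (adjusted p = 0.267 over 4 measures). The means were 3487.5 ± 924, 4941 ± 512 and 2784 ± 41.4 bp (SD, n = 2). The most distant flanking summit was 7938 and 7945, 7833 and 7935, and 5287 and 7808 bp from its ARS. In CDK/DDK bypass, the upper quartile was 3104 and 3533.5 bp, below the medians of CDK bypass. Measured from the ARS midpoint, the control medians (3490 and 2437.75 bp) overlapped those of both other groups. CDK bypass then had 4686 and 3406.25 bp and CDK/DDK bypass 2640.75 and 2808 bp. For summits more than 0.5 kb from the ARS, control (1780 and 1284 bp) and CDK/DDK bypass (1660.5 and 1668.5 bp) overlapped too.

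Leaving out transposon sequence changed this order. The medians were then 2105 and 1350.5 bp for the control, 4801.5 and 2615 bp for CDK bypass, and 2730 and 2684 bp for CDK/DDK bypass, and the difference of CDK/DDK bypass from the control was 979 bp in place of -703 bp. In the control, 18 of 21 and 27 of 28 summits beyond 4 kb were at transposon sequence. In CDK bypass these were 21 of 39 and 26 of 40, and in CDK/DDK bypass 3 of 4 and 4 of 8.

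Summits beyond 4 kb that were not at transposon sequence were found mainly after CDK bypass. They numbered 3 and 1 in the control, 18 and 14 in CDK bypass, and 1 and 4 in CDK/DDK bypass. From 6 to 8 kb, CDK bypass had 10 and 8 and the other 4 lists had 0. CDK bypass was thus separate from both other groups (exact two-sided permutation p = 0.333 for each, the smallest possible, adjusted p = 0.375), with a difference of 14 summits from the control and 13.5 from CDK/DDK bypass. The exact one-sided permutation over 15 pairings gave p = 0.2. With every list limited to 318 summits the counts were 3 and 1, 8 and 4, and 1 and 4, so that CDK bypass overlapped CDK/DDK bypass and the differences were 4 and 3.5. Per Mb of arm sequence 6 to 8 kb from an ARS and clear of transposons, CDK bypass had 15.4 and 12.3 summits. These were weak calls: with a score of at least 10 there were 0 and 1 such summits beyond 4 kb in the control, 1 and 0 in CDK bypass, and 1 and 2 in CDK/DDK bypass, so that the difference between CDK bypass and control was 0.

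The genes under these distant summits in CDK bypass were called with low scores, but several at places that the replicates shared. In CDC27, the gene for a subunit of the anaphase-promoting complex, the summit lay at 68628 and 68624 in replicates 1 and 2, 5247 and 5243 bp from ARS202 (chr2:63259-63381), with percentiles of 33.9 and 28.8. A further summit of ARS202, in replicate 1, lay on the other side in TEL1, the checkpoint kinase of the ATM family. In MTC7 the summit lay at 86516 and 86513, beside ARS508 (chr5:93978-94218), which in replicate 1 also had summits in MCM3, a subunit of the helicase, and VMA3, a subunit of the vacuolar proton pump. In MFB1, a gene for a mitochondrial F-box protein, it lay at 906657 and 906556 beside ARS427 (chr4:899051-899596). In DIS3, the catalytic subunit of the exosome, it lay at 284389 and 284384 beside ARS1511 (chr15:277530-277778). All of these were absent from the control lists, and ARS1511 was flanked after CDK/DDK bypass at other positions, in TSR4 and MIM1.

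In CDK/DDK bypass the summits clear of transposon sequence gathered between 2 and 4 kb. This band held 10 of 18 and 20 of 33 of them (55.6% and 60.6%), against 7 of 19 and 6 of 28 in the control (36.8% and 21.4%) and 10 of 34 and 8 of 37 in CDK bypass (29.4% and 21.6%). The density in the band was 13.6 and 27.2 per Mb in CDK/DDK bypass, 9.53 and 8.16 in the control, and 13.6 and 10.9 in CDK bypass, so that replicate 1 of CDK/DDK bypass equaled the higher CDK bypass list in number and only replicate 2 exceeded it. The bars by distance band show both patterns, the light segments of CDK bypass and the medium blue of CDK/DDK bypass.

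**Figure D3:**
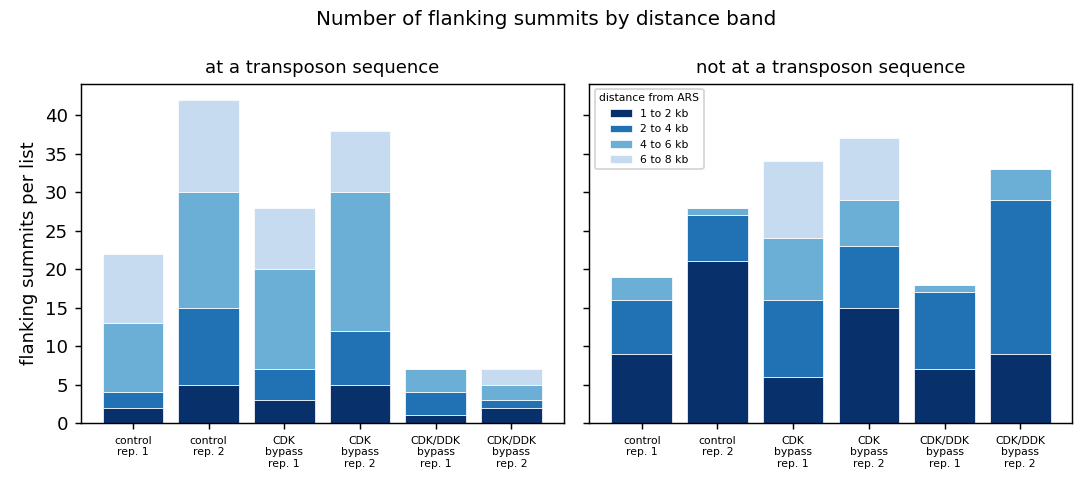
Stacked bars give the number of flanking summits per list in the bands 1 to 2, 2 to 4, 4 to 6 and 6 to 8 kb from the nearest ARS, at transposon sequence on the left and away from it on the right. On the right, the lightest segment (6 to 8 kb) is present in the CDK bypass lists alone, with 10 and 8 summits.

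HXT7, which encodes a high-affinity hexose transporter, lay at the best summit of ARS432, which no list other than the pair from CDK/DDK bypass showed as flanked. The summits in HXT7 were at 1154554 and 1154741, 4708 and 4521 bp from ARS432 (chr4:1159262-1159510), with percentiles of 49.8 and 63.4. Both windows occurred 2 times in the genome. ARS1510 (chr15:166976-167221) was flanked in the same pair of lists, at 169926 in ATG19, a gene of selective autophagy, and at 170642 between genes. ARS1013 (chr10:375706-376227) was flanked 1485 to 2145 bp away in both lists, near a Ty1 LTR in replicate 1, and in CDK bypass replicate 2 in KAR2, the chaperone gene of the endoplasmic reticulum. Of the other summits beyond 4 kb in CDK/DDK bypass, chosen here after its position was seen, 1 lay at 559471 in DBF4, in replicate 2 only, at percentile 55.5. The CDK/DDK bypass strain carries a further, galactose-inducible copy of DBF4, and whether reads from that copy contributed was not tested.

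In the band from 1 to 2 kb, replicate 2 had more summits than replicate 1 in every group. The band held 11 and 26 summits in the control, 9 and 20 in CDK bypass, and 8 and 11 in CDK/DDK bypass. In replicate 2 of the control, 15 of the 24 origins with a summit in this band had none within 1 kb, and 12 of these 15 had a summit within 1 kb in replicate 1. In replicate 2 of CDK bypass this was 12 of 20 and 8 of 12. In the other 4 lists, the origins with a summit in this band that lacked one within 1 kb were fewer. They were 3 of 11 in control replicate 1, 5 of 9 in CDK bypass replicate 1, and 1 of 6 and 2 of 11 in CDK/DDK bypass. As a share, CDK bypass replicate 1 (55.6%) was near replicate 2 of the control (62.5%) and of CDK bypass (60%).

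Some of these summits ranked near the top of their list. At ARS1018 (chr10:540546-540780) the summit lay at 541907 in control replicate 2 and at 541906 in CDK bypass replicate 2, in YJR056C near a Ty1 LTR, with percentiles of 94.6 and 98.1 and windows that occurred once in the genome. In the other 4 lists the best summit lay 284 to 309 bp from the same ARS, on the other side. ARS1422, ARS216 and ARS1109, singled out after their values were seen, showed the same pairing, with the summit 1140 and 1158, 1128 and 1105, and 1453 and 1464 bp from the ARS in replicate 2 of control and CDK bypass, and at most 546 bp away in the other lists. At ARS413 it was 1002 to 1025 bp away in 4 lists, including CDK/DDK bypass replicate 2, and 147 and 132 bp away in control replicate 1 and CDK/DDK bypass replicate 1. At these origins the limit of 1 kb placed the summit in different classes in different lists. The largest distance at or under this limit in each list was 932 to 998 bp and the smallest above it 1002 to 1199 bp. At the outer limit, the nearest arm summits beyond 8 kb lay 8285 to 8756 bp from an ARS.

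Ranks within each list differed between positions. The median flanking summit stood at percentile 14.5 and 29.2 in the control, 23.8 and 32.8 in CDK bypass, and 23.3 and 33.2 in CDK/DDK bypass, whereas arm summits within 1 kb of an ARS had medians of 65.9 to 71.7. In each list the flanking summits thus ranked below the summits at origins, and in each group replicate 2 had the higher median. At transposon sequence the medians were 28.9 and 27.8, 30.6 and 39.3, and 42.9 and 46.8, and away from it 9.75 and 29.7, 19 and 23, and 19.9 and 32.4. These ranks are not like for like between groups. Chromosome 12 held 126 of 331 and 123 of 380 nuclear summits in CDK/DDK bypass, against 39 to 49 per list in the others. The median scores of Ty3 summits, given above, were lowest after CDK/DDK bypass.

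The side on which a flanking summit lay did not separate the groups. On the chromosome-end side of the ARS there were 46.3% and 45.7% of the summits in the control (19 of 41 and 32 of 70), 46.8% and 44.0% in CDK bypass (29 of 62 and 33 of 75), and 32% and 50% in CDK/DDK bypass (8 of 25 and 20 of 40). The groups overlapped in each pair (exact permutation p = 1 for all 3), and the replicates of CDK/DDK bypass lay on either side of the other 4 lists. With CDK/DDK bypass replicate 1 left out, the difference from the control changed from -5.03 to 3.97 percentage points. By coordinate, 175 of the 313 summits lay to the left of their ARS and 138 to the right. Away from transposon sequence the end-side share was 47.4% and 57.1%, 52.9% and 48.6%, and 27.8% and 51.5%.

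Most flanked origins carried 1 flanking summit. The number of flanked origins was 33 and 45 in the control, 44 and 49 in CDK bypass, and 19 and 32 in CDK/DDK bypass, with 1.24 and 1.56, 1.41 and 1.53, and 1.32 and 1.25 summits per flanked origin. Only the difference between CDK/DDK bypass and CDK bypass was without overlap (-0.19 per origin, exact permutation p = 0.333), and it was positive with a limit of 5 kb (0.059). Without transposon sequence it was -0.015 and the groups overlapped. Flanking summits on both sides were rare, at 1 and 2 origins in the control, 4 and 7 in CDK bypass, and 2 and 3 in CDK/DDK bypass. Besides ARS1312 and ARS1629, ARS508 was flanked on both sides in both CDK bypass lists, and ARS1018 in CDK bypass replicate 2, where RAD7, a nucleotide excision repair gene, held the left-hand summits.

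**Figure D4:**
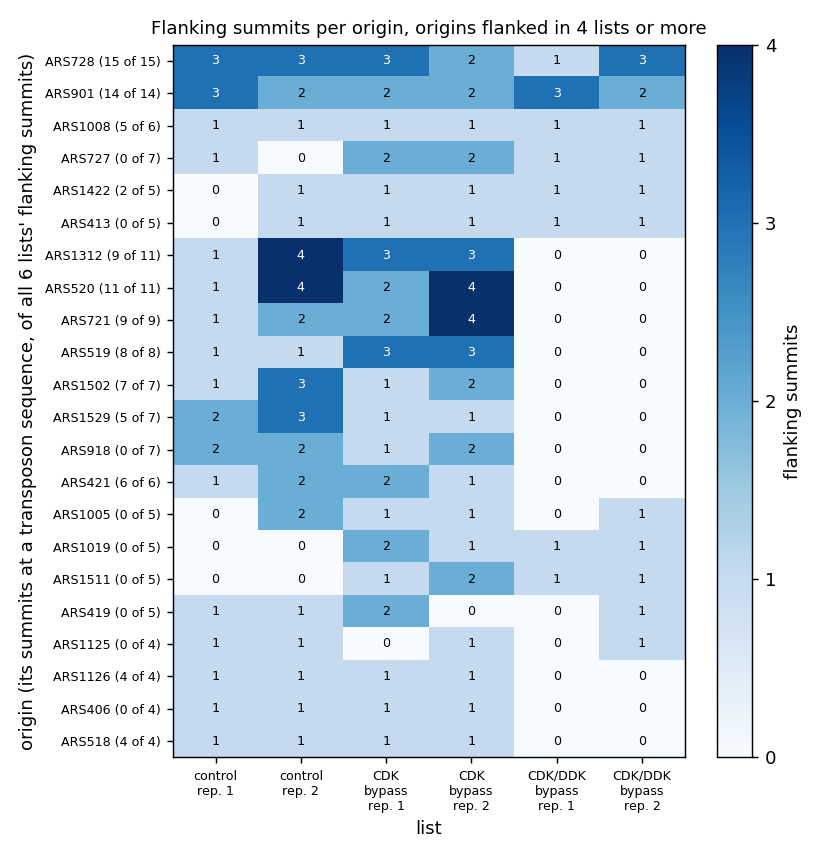
Numbers and shading give the flanking summits per origin (rows) and list (columns) for the 22 origins flanked in 4 lists or more, with the count at transposon sequence beside each name. ARS728, ARS901 and ARS1008 are filled in all 6 lists, and rows of Ty1-bearing origins such as ARS520 and ARS1312 are 0 in both CDK/DDK bypass lists.

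Most origins flanked after CDK/DDK bypass also had a summit on the origin itself. A summit within 1 kb of the same ARS was present at 69.7% and 48.9% of the flanked origins in the control (23 of 33 and 22 of 45), 79.5% and 59.2% in CDK bypass (35 of 44 and 29 of 49), and 94.7% and 90.6% in CDK/DDK bypass (18 of 19 and 29 of 32). CDK/DDK bypass lay above the other 4 lists. Among all 215 arm ARS, such a summit was found at 47.4% and 40.5%, 49.8% and 44.7%, and 44.2% and 47.4%, with overlapping groups. Of the 93 flanked origins, 34 were flanked in 1 list only, 17 of these in a CDK/DDK bypass list, and 66 never had a flanking summit at transposon sequence. Flanked in all 4 control and CDK bypass lists but never after CDK/DDK bypass were 11 of the 93 origins. Of these, 9 had flanking summits at transposon sequence. The CDK/DDK bypass lists held fewer arm summits in all, and the same count over all loci is not given here.

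Joined across lists, summits within 1 kb of each other formed 502 loci outside chromosome 12, of which 149 held a flanking summit. Of these, 29 (19.5%) had a call in each CDK bypass list but none after CDK/DDK bypass, against 18.9% of all 502 loci, and 19 (12.8%, against 14.3%) had one in each control list but none after CDK/DDK bypass. In the reverse direction there were 7 (4.70%, against 4.18%) and 8 (5.37%, against 4.38%). Between CDK bypass and control, 10 loci (6.71%, against 6.57%) had a call in each CDK bypass list and none in the control, and 3 (2.01%, against 2.39%) the other way. Each share was close to that of all loci. Of the 29 and 19 loci missing after CDK/DDK bypass, 19 and 15 had their best flanking summit at transposon sequence. All 10 loci that were specific to CDK bypass against the control were away from it. Of all 149 flanking loci, 44 (29.5%) were at transposon sequence and 105 were away from it.

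Of the flanking loci, 14 of 149 (9.40%) were called in all 6 lists, against 116 of 502 (23.1%), and 69 (46.3%) in 1 list. Of the 14, 13 also held a summit within 1 kb of the ARS, and the remaining one was the Ty3 site in YGR109W-B. The control-specific origins named by rank were ARS429 (chr4:921692-921939), with 3 summits in SIR4, a silencing gene, ARS1322 (chr13:553422-554331), with 3 in NDE1, a mitochondrial NADH dehydrogenase gene, and ARS1319 (chr13:503389-503771), with 2 at an LTR.

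The share of head-on genes under flanking summits away from transposon sequence was highest in the control and lowest after CDK/DDK bypass. A gene was called head-on when a fork leaving the nearest ARS would meet its transcription in the opposite direction. Of the flanking summits in protein-coding genes, 9 of 11 and 18 of 21 were in head-on genes in the control (81.8% and 85.7%), 13 of 19 and 20 of 28 in CDK bypass (68.4% and 71.4%), and 4 of 13 and 10 of 22 in CDK/DDK bypass (30.8% and 45.5%). The 3 groups did not overlap, and the exact one-sided permutation over 15 pairings gave p = 0.0667, the smallest it can give (adjusted p = 0.1). Of the gene bases 1 to 8 kb from an arm ARS, 49.9% were head-on. Several summits can share a gene: counted once each, 8 of 10 and 15 of 18 genes were head-on in the control, 13 of 19 and 18 of 26 in CDK bypass, and 4 of 12 and 10 of 22 in CDK/DDK bypass. The measure was chosen after the data were seen. It depended on the limits: with chromosome 12 included the shares were 71.4% and 70.4%, 68.2% and 69.7%, and 54.3% and 52%, with CDK/DDK bypass above the share of gene bases, and with summits from 0.5 kb on CDK/DDK bypass had 56.5% and 54.5%. Beyond 2 kb the control (71.4% and 83.3%) and CDK bypass (66.7% and 75%) overlapped, as they did with lists of equal length.

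**Figure D5:**
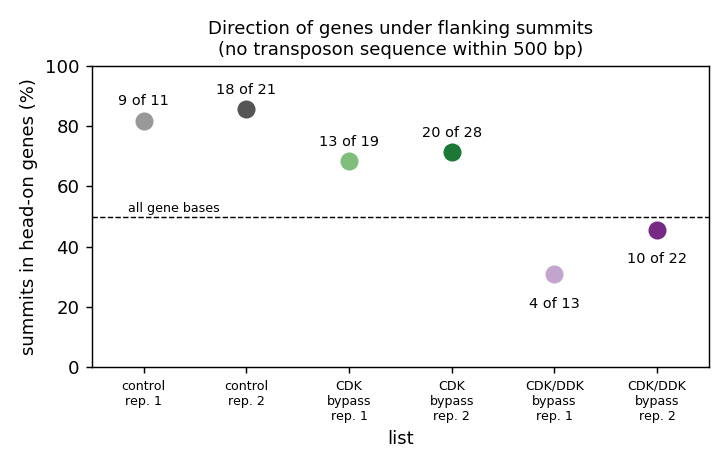
Points give, for each list, the percent of flanking summits in protein-coding genes and away from transposon sequence whose gene is head-on to a fork leaving the nearest ARS, with the counts, and the dashed line the percent over all such gene bases (49.9%). The control points (81.8% and 85.7%) are highest, those of CDK bypass (68.4% and 71.4%) follow, and those of CDK/DDK bypass (30.8% and 45.5%) lie below the line.

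The head-on genes of the control included NDE1, which held no flanking summit in the other groups, and SIR4, which beside ARS428 also held a codirectional one in CDK/DDK bypass replicate 2. UBP12, a ubiquitin protease gene beside ARS1005, had 0 and 2 summits in the control, 1 and 1 in CDK bypass, and 0 and 1 in CDK/DDK bypass. TIM44, a mitochondrial import gene beside ARS918, had 1 and 2, 0 and 1, and 0 and 0. Head-on genes of CDK bypass included CDC27, DIS3, MFB1, MTC7 and RAD7. In CDK/DDK bypass, codirectional genes found in both lists were HXT7, MET5, a sulfite reductase gene beside ARS1021, and SEC16, a gene of vesicle budding beside ARS1618 that was also found in CDK bypass replicate 2. UBP12, TIM44, MET5 and SEC16 are named after their counts were seen.

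Few flanking summits lay near a further match to the sequence shared by origins. An exact match to the ARS consensus, searched on both strands within 500 bp of the best flanking summit, was found at 11 of 149 flanking loci (7.38%), against 4.83% of arm windows of the same length 1 to 8 kb from an ARS, 5.68% of all arm windows and 30.2% of the annotated arm ARS themselves. Within 8 kb of a second annotated ARS lay 7 and 7, 9 and 11, and 6 and 6 flanking summits. Among the origins named here, ARS520, ARS901, ARS1018 and ARS1510 held an exact match, shown for the first pair with 10 bases on each side and the match of 11 bases in capitals (chr5:498892-498902 and chr9:214738-214748 for the match, plus strand).
ARS520: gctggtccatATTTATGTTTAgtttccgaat
ARS901: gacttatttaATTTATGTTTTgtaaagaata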

How the data were processed

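Peak summits of EdU pull-downs from cells released into S phase were analysed for 3 groups of 2 samples. The other 216 of the 222 samples were not used here. Per the methods and the submitters' processing notes, the authors aligned paired-end reads to sacCer3 with BWA 0.7.17-r1188, sorted them with SAMtools 1.12 and called peaks with MACS2 2.2.7.1, each sample against its own total DNA, with replicates not pooled. The deposited score is −log10 of the q-value. It was used as a percentile among the nuclear summits of its list and as a limit of at least 10 in an alternative. Scores given at Ty sequence were not tested between groups. For the peak calls the paper states paired-end mode and default parameters apart from a q-value limit. A strand, duplicate or multi-mapping filter is not named in the sources used here.

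Positions are counted from 1. Distances to ARS features, genes, Ty elements and LTRs came from the R64 annotation, and counts were made in Python 3.11.15 (SciPy 1.17.1, NumPy 2.4.6) by scripts tested on simulated lists. No summit lay beyond a chromosome end, and no entry occurred in 2 lists. Each list gave 1 value per measure, compared by exact permutation over samples with Benjamini-Hochberg adjustment. With 2 samples per group no test can reach 0.05.

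Origins were named by rule: those flanked in all 6 lists, up to 3 per pair of groups and direction flanked in both lists of 1 group and in neither of the other, the 4 with the most summits, and up to 4 flanked on both sides in the most lists. Genes under their summits were named too. The members, lists and measures were chosen with earlier results of these data known. Alternatives covered the distance limits, the ARS midpoint, the score, list length, thinning, arm limits, chromosome 12, joining width and each replicate left out. The transposon and gene-direction measures, and the fits without transposon sequence, were chosen after seeing the data.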

Additional observations from a re-analysis of the deposited data

Results flagged for a closer look

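For 3 measures, both CDK bypass lists lay on one side of the control mean and both CDK/DDK bypass lists on the other. These opposite directions marked them for a closer look, and the difference between the effects was not tested. The number of flanking summits was 36 higher in CDK bypass than in CDK/DDK bypass, and the control lists overlapped CDK bypass. The median distance to the ARS was 2157 bp longer. The number of flanking summits per flanked origin was 0.187 higher, though the difference of CDK/DDK bypass minus CDK bypass was -0.015 without transposon sequence.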

How the results depend on the processing

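No alternative brought a p below 0.333, so only directions and sizes can change. Of 21 differences between groups, 6 kept their direction under every alternative run, 14 reversed under at least 1 and 1 did not reverse but was 0 under some, and the cause was not tested. The latter was the number of summits beyond 4 kb clear of transposons in CDK bypass minus control, 0 with a score of at least 10 and up to 5 kb. With a score of at least 10, the difference between CDK bypass and control was -1.5 for the number of flanking summits and -724.75 bp for the median distance, and those between CDK/DDK bypass and control and between CDK/DDK bypass and CDK bypass were 5.57 and 9.90 points on the end side, 0.035 and 0.024 summits per origin, and, for the latter pair, 1 for summits beyond 4 kb clear of transposons. Without transposon sequence, CDK/DDK bypass minus control was 2 for the number and 979 bp for the distance. For CDK bypass minus control the end-side share was 2.60 points beyond 0.5 kb, 1.66 beyond 2 kb, 4.24 up to 5 kb, 0.955 with 1 summit per kb and 2.28 with wider arms. With chromosome 12, the number in CDK/DDK bypass minus control was -0.5, and CDK/DDK bypass differed from control and from CDK bypass by 10.2 and 10.9 points on the end side, by 0.481 and 0.415 per origin and, from CDK bypass, by 5 distant summits. Beyond 0.5 kb the distance of CDK/DDK bypass minus control was 132.5 bp. Up to 5 kb it was 715.5 bp, and 146.5 bp against CDK bypass. Up to 5 kb the differences per origin were -0.059 (CDK bypass minus control), 6.19e-05 (CDK/DDK bypass minus control) and 0.059 (CDK/DDK bypass minus CDK bypass), that of these distant summits against CDK bypass was 1, and the transposon share of CDK bypass minus control was 8.94 points, and 3.09 with every list shortened to its 318 best summits. Distant summits of CDK/DDK bypass minus control were -1 with wider arms and -0.5 with the inside of transposon sequence only.

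With each list left out, in the order CDK bypass minus control, CDK/DDK bypass minus control and CDK/DDK bypass minus CDK bypass, the number ranged from -1.5 to 27.5, -37.5 to -8.5 and -43.5 to -28.5. The end-side share ranged from -2.03 to 0.746, -14.0 to 3.97 and -13.4 to 4.61 points. The median distance ranged from 800 to 2107, -1357 to -49.75 and -2519 to -1795 bp, and summits per origin from -0.086 to 0.227, -0.273 to 0.040 and -0.248 to -0.126. The transposon share ranged from -12.1 to -5.74, -39.3 to -28.8 and -30.4 to -19.9 points, the distant summits from 12 to 16, -1 to 2 and -15.5 to -11.5, with -1 without CDK/DDK bypass replicate 2 and -0.5 without control replicate 2, and the head-on share from -15.8 to -11.9, -53.0 to -38.3 and -39.2 to -24.5 points. A score of at least 10 gave no head-on value in comparisons with the control.

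Flanking loci called in every CDK bypass list and no control list were 6 when joined within 0.5 kb, 1 with a score of at least 10, and 13 to 25 with 1 list left out. Those in control and not CDK bypass were 5 within 0.5 kb and 7 to 13. Those in CDK/DDK bypass and not control were 1 with a score of at least 10 and 8 to 27, and in the reverse direction 4 without transposon sequence and 19 to 44. Those in CDK/DDK bypass and not CDK bypass were 4 within 0.5 kb, 1 with a score of at least 10, and 8 to 24. Those in CDK bypass and not CDK/DDK bypass were 14 with a score of at least 10, 10 without transposon sequence, and 29 to 53. Replicate numbers were not stated to mark a shared batch. Over 502 loci, same-numbered lists correlated by 0.248 between CDK bypass and control and by -0.0064 and -0.016 between CDK/DDK bypass and control and CDK bypass. With the replicate number as a block, the differences were the same and the exact sign-flip p ranged from 0.5 to 1.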
